A study of Mus musculus with 13 samples.

Results

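Notch signaling was examined in the chromatin of cultured oligodendrocyte progenitor cells (OPCs), the dividing cells that give rise to myelinating oligodendrocytes. The members were 10 genes chosen by name from the 55536 genes of the GENCODE M21 annotation of mm10: the receptors Notch1 and Notch2, the ligands Dll1, Dll3 and Jag1, the DNA-binding partner Rbpj, and the target genes Hes1, Hes5, Hey1 and Hey2. Open chromatin had been measured by ATAC-seq, in which the Tn5 transposase cuts accessible DNA, in 13 libraries, each from 1 culture. OPCs came from the brainstem or the dorsal telencephalon (cortex, corpus callosum and hippocampus) of pups at postnatal day 5 to 7. The litters are labeled AMGFAP-Cre;K27M, and the methods of the study name the Cre line hGFAP-Cre. Brainstem libraries numbered 3 for control and 3 for K27M, and telencephalon libraries 3 for control and 4 for K27M. K27M cells carried a conditional knock-in of histone H3.3 with methionine in place of lysine at K27, switched on by a Cre transgene under the GFAP promoter, and control cells came from littermates. Tissue of several pups was pooled by region and genotype, OPCs were captured on an antibody to PDGFRα, and every culture was kept in the same proliferation medium with PDGF, neurotrophin-3, CNTF and forskolin, without differentiation. A culture is therefore a pool of animals, and a peak in it can reflect more cells with open chromatin or more open chromatin per cell, which cannot be told apart.

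Notch receptors are cleaved when a ligand on a neighboring cell binds them, and the released intracellular domain joins RBPJ on DNA and switches on Hes and Hey genes. The Hes and Hey proteins are basic helix-loop-helix repressors. In the oligodendrocyte lineage the pathway is known for holding progenitors back from differentiation, with astrocytes and axons as sources of Jagged and Delta ligands. RBPJ binds a short core sequence, TGGGAA, and pairs of such cores in Hes promoters are a textbook feature of its targets.

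Each library was available as a list of called peaks with, for each peak, its fold over the local background of that library. The lists held 16879 to 52466 peaks, the smallest in control telencephalon culture 59, and no read counts, so the depth of every library is unknown and a missing peak means only that none was called. Promoters of marker genes were looked up in each list. Of 7 OPC genes, 6 had a promoter peak in every library, among them Pdgfra, Olig1, Olig2 and Sox10. Mog, Mag and Aspa of mature oligodendrocytes, Cx3cr1 and Csf1r of microglia and Cdh5 of endothelium had one in none. Of other lists, 3 of 5 astrocyte genes (Gfap, Slc1a2 and Gja1) and 2 of 6 neuronal genes (Snap25 and Syt1) had a promoter peak in every library. In each library 3 to 5 astrocyte and 3 to 6 neuronal genes had one, with the same ranges in either region and either genotype. Of 5 mature oligodendrocyte genes, 0 to 2 had one in brainstem libraries and none did in telencephalon libraries. Between 0 and 3 of 5 microglial and 0 and 2 of 4 endothelial genes had one. The part of such cells in the results was not tested.

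RefSeq promoter sequences (GRCm38.p6, the assembly of mm10) were found for 8 of the 10 members, all but Hes1 and Hey1. The 250 bases upstream of their starts had a median of 21 CpG dinucleotides and 65.6% G and C, over 10 sequences of 8 genes, against 6 CpG and 52.4% for all 32851 promoters of 27025 genes. The core TGGGAA, searched on both strands, was in the promoters of Hes5, Hey2 and Rbpj among the 8 genes. That made 4 of the 10 sequences (40.0%), and 21.6% of all promoters held it. Rbpj has a pair of overlapping sequences, and the only core of the second is the one at −65 of the first. The same site was therefore counted in both. Counted from the start of transcription, Hes5 held it at −226 on the opposite strand and at −82 on its own strand, Hey2 at −207 on the opposite strand, and Rbpj at −149 on its own strand and, inside an annotated exon, at −65 on the opposite strand. These are shown because they are the members whose promoter holds the core of the factor that Rbpj encodes, with the core in capitals. For Hey2 and Rbpj only the bases upstream of every annotated exon of the gene are given.
Hes5 promoter, chr4:154960673-154960922, plus strand: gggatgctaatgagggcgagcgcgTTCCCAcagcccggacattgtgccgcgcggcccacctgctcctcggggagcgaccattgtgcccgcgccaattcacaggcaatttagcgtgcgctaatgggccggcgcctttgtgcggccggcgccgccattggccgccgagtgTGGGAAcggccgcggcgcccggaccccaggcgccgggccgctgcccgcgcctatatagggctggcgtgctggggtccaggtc
Hey2 promoter, chr10:30842802-30843033, minus strand: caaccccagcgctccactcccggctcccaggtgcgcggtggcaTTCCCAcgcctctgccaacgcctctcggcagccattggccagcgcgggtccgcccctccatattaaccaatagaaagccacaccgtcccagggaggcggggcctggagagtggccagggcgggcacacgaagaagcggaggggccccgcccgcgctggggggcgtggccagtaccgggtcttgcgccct
Rbpj promoter, chr5:53590096-53590213, plus strand: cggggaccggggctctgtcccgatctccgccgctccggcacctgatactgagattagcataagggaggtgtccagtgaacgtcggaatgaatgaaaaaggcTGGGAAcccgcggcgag
Capitals read TGGGAA where the core lies on the strand shown and TTCCCA where it lies on the other. A match of these letters describes the sequence and is not evidence of binding.

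Promoters of the pathway were open in nearly every culture. With a promoter window from 2 kb upstream to 1 kb downstream of any annotated start, Notch2, Dll1, Jag1, Hes1, Hes5, Hey1, Hey2 and Rbpj had a peak in all 13 libraries, Dll3 in 12 and Notch1 in 9. A promoter peak in all 13 libraries was found at 11486 of 55536 genes in the annotation and at 41.8% of its 22028 protein-coding genes. The members differed widely in how far their peaks stood above background. The mean fold ran from 4.10 ± 0.38 (SD, n = 13) at Hey2 to 2.30 ± 0.23 (SD, n = 13) at Hes5, so both ends of the order were target genes of the pathway.

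**Figure D1:**
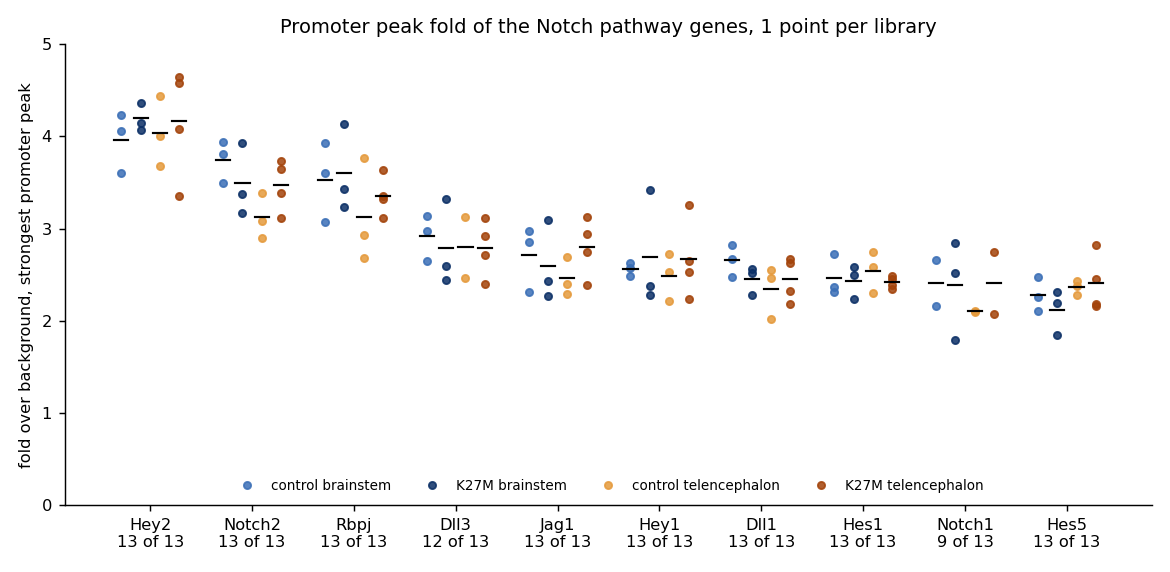
Fold over local background (vertical axis, no unit) of the strongest promoter peak of each gene, with 1 point per library, colors for the 4 groups and black bars for group means; the number of libraries with a peak is under each name. Hey2 stood above Notch2 in every library. For every gene called in all 13 libraries, brainstem overlapped telencephalon and control overlapped K27M. Not all pairs of the 4 groups did, since control brainstem lay above control telencephalon at Notch2.

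In order of mean fold, Hey2 was followed by Notch2 (3.46 ± 0.34, SD, n = 13), Rbpj (3.40 ± 0.41, SD, n = 13) and Dll3 (2.82 ± 0.32, SD, n = 12). Jag1 (2.65), Hey1 (2.61), Dll1 (2.47), Hes1 (2.46), Notch1 (2.33, n = 9) and Hes5 came after these. Neighbors were compared within libraries on the log2 scale. Hey2 exceeded Notch2 in 13 of 13 libraries, by 0.24 ± 0.14 (SD), and Rbpj exceeded Dll3 in 11 of 12, by 0.29 ± 0.16 (SD). The other 7 steps of the order were smaller than their SD across libraries, so Notch2 and Rbpj, and the 7 genes from Dll3 to Hes5, were not separated from their neighbors in the order.

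Most of these promoters ranked low in fold among promoters that were open throughout. Of the 8 members called in all 13 libraries, 5 were in the lowest 5% of the 11486 genes with a promoter peak in every library: Hes5 at percentile 0.461, Hes1 at 1.58, Dll1 at 1.65, Hey1 at 3.21 and Jag1 at 4.16. Rbpj was at percentile 39.7, Notch2 at 43.4 and Hey2 at 80.6. The deposited fold is a mean over the whole broad peak, so widths are given as well. The mean width percentile within the list was 97.3 at Dll1, 92.6 at Hes1, 92.0 at Hey1 and 79.5 at Jag1. Hey2, the highest of the 8 in fold, was at 78.2, with a median width of 1166 bp. Hes5, the lowest of the 8 in fold, was at 62.7, with a median width of 950 bp, next to Notch2 at 63.5, and Rbpj, in the middle by fold, was at 94.8. By p-value these promoters ranked higher. The mean percentile of −log10 p within the list was 85.8 for Dll1, 84.1 for Hes5, 70.0 for Hey1, 67.2 for Hes1 and 62.5 for Jag1, where that of fold ran from 8.76 at Hes5 to 29.4 at Jag1. The part of width in these ranks was not tested.

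**Figure D2:**
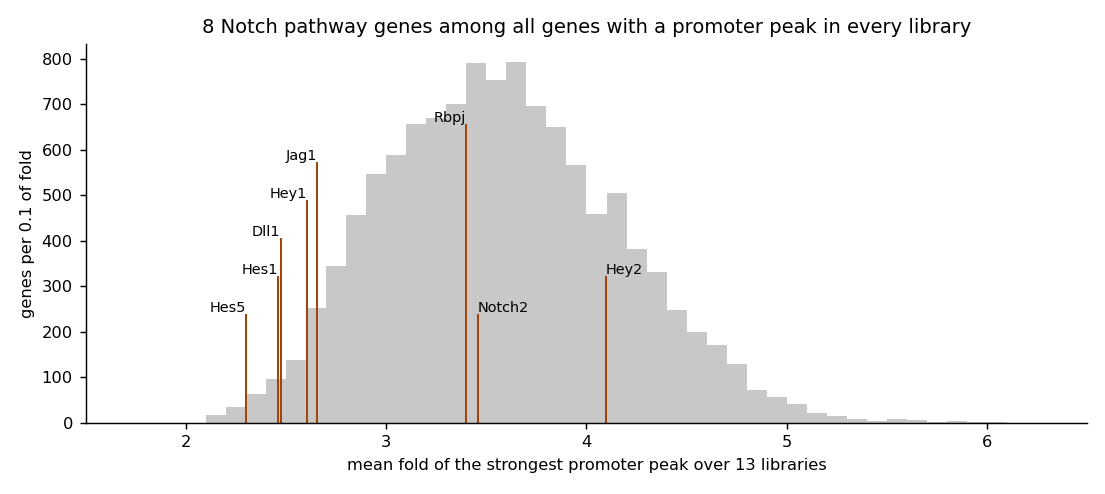
Distribution of the mean fold of the strongest promoter peak (horizontal axis, no unit) over the 11486 genes with a promoter peak in all 13 libraries, with the 8 members called in all of them marked; line heights serve only to separate the names. Hes5, Hes1, Dll1, Hey1 and Jag1 lie in the left tail, Rbpj and Notch2 near the middle and Hey2 to the right.

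Among the receptors, Notch2 (chr3:98013527-98150361, plus strand) had a promoter peak of 578 to 1145 bp that contained an annotated start in all 13 libraries. Its fold was 3.17 to 3.93 in brainstem (median 3.65) and 2.90 to 3.73 in telencephalon (median 3.38), and medians of control and K27M were 3.44 and 3.39. Notch1 (chr2:26457903-26516663, minus strand), by contrast, was called unevenly at its 11 annotated starts. In 6 of its 9 libraries the strongest peak contained a start, and in the other 3 it only reached a promoter window. No promoter peak of Notch1 was called in control brainstem culture 51, control telencephalon culture 51 and K27M telencephalon cultures 41 and 61. It was called in 5 of 6 brainstem and 4 of 7 telencephalon libraries, and in 4 of 6 control and 5 of 7 K27M libraries. When peaks were joined across libraries, all 13 nonetheless had a peak within chr2:26499981-26504051, which spans annotated exons and the start given by RefSeq. Its fold was 2.58 ± 0.22 (SD, n = 13), with a centered log2 difference of −0.07 between regions (SE 0.070, unadjusted p = 0.340, limma) and −0.02 between genotypes (SE 0.070, unadjusted p = 0.757, limma). In the 4 libraries without a promoter call, the peak there ended short of the window.

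Of the ligands, which are membrane proteins of the signal-sending cell, Dll1 (chr17:15367354-15376872, minus strand) had a peak of 1422 to 3561 bp across its start in every library. Its fold was 2.02 to 2.82, lowest in control telencephalon culture 59 and highest in control brainstem culture 59, with medians of 2.54 in brainstem and 2.47 in telencephalon and of 2.52 in both control and K27M. The peak also lies in the promoter window of the gene model A930024N18Rik. Jag1 (chr2:137081456-137116644, minus strand) ran from 2.27 to 3.09 in brainstem (median 2.64) and from 2.29 to 3.12 in telencephalon (median 2.69), so that the ranges nearly coincided. Dll3 (chr7:28293553-28302238, minus strand), a ligand that acts mainly inside its own cell, ran from 2.44 to 3.32 in brainstem (median 2.81) and from 2.40 to 3.12 in telencephalon (median 2.82). The library without a Dll3 promoter peak was control telencephalon culture 59, which also had the shortest list.

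Rbpj (chr5:53466152-53657362, plus strand) had a peak of 1378 to 2468 bp over an internal start, the one whose upstream sequence is printed above, far inside the longest gene model. Its fold was 3.07 to 4.13 in brainstem (median 3.51) and 2.69 to 3.76 in telencephalon (median 3.31), with the lowest value again in control telencephalon culture 59. Medians of control and K27M, 3.33 and 3.35, were closer still.

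Among the target genes, Hey2 (chr10:30832359-30842801, minus strand) had folds of 4.060, 3.602 and 4.232 in control brainstem cultures 51, 59 and 61 and 4.145, 4.362 and 4.072 in K27M brainstem cultures 41, 59 and 61. They were 4.001, 3.681 and 4.440 in control telencephalon cultures 51, 59 and 61 and 3.352, 4.575, 4.074 and 4.645 in K27M telencephalon cultures 41, 51, 59 and 61. K27M telencephalon cultures held both the lowest and the highest value, and all groups overlapped. Hey2 was at a mean percentile of 90.9 within the lists. Hes1 (chr16:30064384-30067796, plus strand) was the most even of the 10 by SD, at 2.24 to 2.72 in brainstem (median 2.43) and 2.31 to 2.74 in telencephalon (median 2.45). Hey1 (chr3:8663359-8667256, minus strand) had a median of 2.53 in either region and ran from 2.22 to 3.42, with its 2 highest values in K27M brainstem culture 61 and K27M telencephalon culture 51.

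To ask whether region or genotype was reflected at these promoters, log2 fold was centered on the library median and fitted with limma over the 11486 genes with a promoter peak in all libraries, with 4 groups in 1 model and Benjamini-Hochberg adjustment over all genes. Brainstem and telencephalon differed at 4 genes (0.0348%), none of them a member, and at 2 genes when culture number was added as a replicate block. For K27M against control, limma called no gene averaged over regions (0%), in brainstem (0%) or in telencephalon (0%), nor any for the difference between the regions in the effect of K27M (0%). At an unadjusted p under 0.05, limma returned 508, 416, 457 and 397 genes in these comparisons (4.42%, 3.62%, 3.98% and 3.46%). Except in the fit with the block, p-values measure the spread between cultures and take those of the same number as independent. The 8 members gave differences from −0.19 to 0.06 between regions (SE 0.066 to 0.097) and from −0.09 to 0.03 between genotypes, each on the log2 scale. The smallest adjusted p over all members and contrasts was 0.995 by limma. At an unadjusted p under 0.05, limma returned 1 member for region, where 4.21% of all genes passed, and none for the 4 comparisons of genotype and the interaction. Median differences of the 8 members were −0.06 for region and −0.002 for genotype, against −0.008 and −0.0008 over all genes.

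The member with an unadjusted p under 0.05 for region was Hes5 (chr4:154960923-154962371, plus strand), whose sequence above holds separate RBPJ cores at −226 and −82. Its folds were 2.472, 2.255 and 2.108 in control brainstem cultures 51, 59 and 61 and 2.198, 2.311 and 1.846 in K27M brainstem cultures 41, 59 and 61. They were 2.431, 2.283 and 2.373 in control telencephalon cultures 51, 59 and 61 and 2.455, 2.818, 2.160 and 2.186 in K27M telencephalon cultures 41, 51, 59 and 61. The lowest value was a K27M brainstem and the highest a K27M telencephalon library, and the regions overlapped. Centered log2 fold was lower in brainstem by 0.19 (difference −0.19, SE 0.078, unadjusted p = 0.0178, adjusted p = 0.995 by limma). On that scale the control means were −0.67 in brainstem and −0.48 in telencephalon, and the K27M means −0.77 and −0.57. The direction held under every alternative tried, and the difference ranged from −0.25 to −0.13 with each library left out, the latter without control brainstem culture 61. The peak also lies in the promoter window of the gene model Gm20421, and signal of one cannot be separated from the other.

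No member's groups were free of overlap on the centered scale for region, where 14 genes (0.122%) were, or for genotype, where 7 genes (0.0609%) were. For genotype the 2 largest differences were −0.09 at Hes5 (SE 0.078, unadjusted p = 0.266, limma) and −0.08 at Hes1 (SE 0.093, unadjusted p = 0.368, limma). The percentile scale turned the sign at Hes5, to 2.01 percentile points. For the interaction, the smallest unadjusted p was 0.276 by limma, at Hey2. Without centering, the median over all genes shifted on the log2 scale, by 0.077 for region and by −0.117 in the interaction. In the genotype comparison within telencephalon it shifted by 0.101, and the values here are relative to that median. Dll3, fitted in the 12 libraries that had its peak, differed by 0.0007 ± 0.079 (SE) between regions and by −0.04 ± 0.079 (SE) between genotypes.

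**Figure D3:**
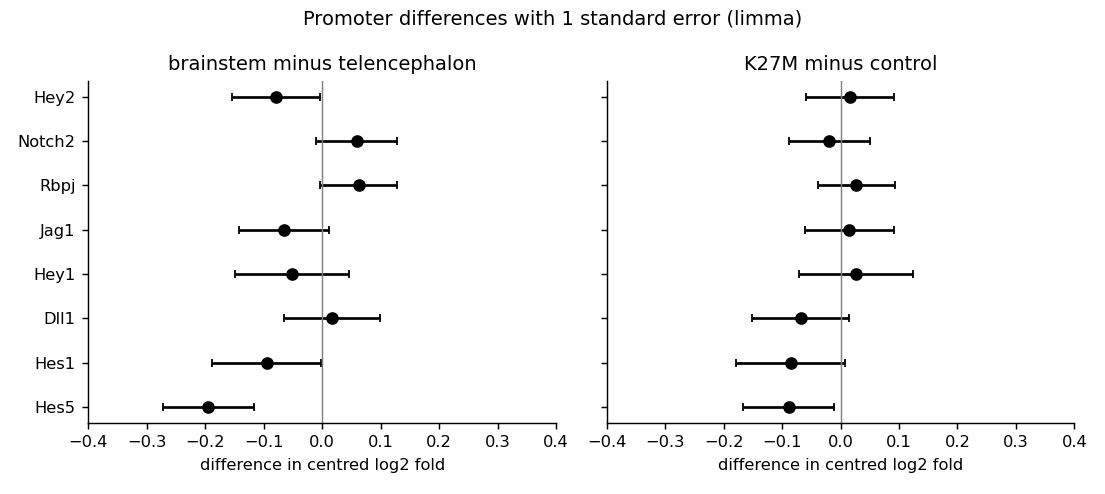
Differences in centered log2 fold (horizontal axis) with 1 standard error for the 8 members called in all 13 libraries, brainstem minus telencephalon on the left and K27M minus control on the right. Hes5 is farthest from 0 on the left at −0.19, and values on the right lie between −0.09 and 0.03; without centering the region values of Jag1 and Hey1 and the genotype value of Notch2 change sign.

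Promoters called in 5 to 8 libraries were compared by detection, using Fisher's exact test (two-sided) over 1817 genes. No member was in this range. None of the 1817 genes passed after adjustment for region (0%) or genotype (0%), and 39 and 22 had an unadjusted Fisher p under 0.05. The smallest Fisher p that this design allows, 0.000583, is too large for a single gene to pass adjustment over 1817 genes.

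Beyond the promoters, peaks in each gene and within 20 kb of it were joined across libraries where they overlapped. The 10 loci held 74 of the 99746 merged peaks: 14 at promoters, 29 elsewhere in the genes and 31 outside them. Of the 74, 16 (21.6%) were in all 13 libraries and 18 (24.3%) in 1 library, compared with 13.1% and 43.1% of all merged peaks. Hes5, with 9 merged peaks in 41.5 kb, had the densest locus at 21.7 per 100 kb, and Hey2, with 2 in 50.4 kb, the sparsest at 3.97. Rbpj had the most, 17, of which only the promoter peak was in every library, and Hes1 had no other peak than its promoter in more than 1 library.

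**Figure D4:**
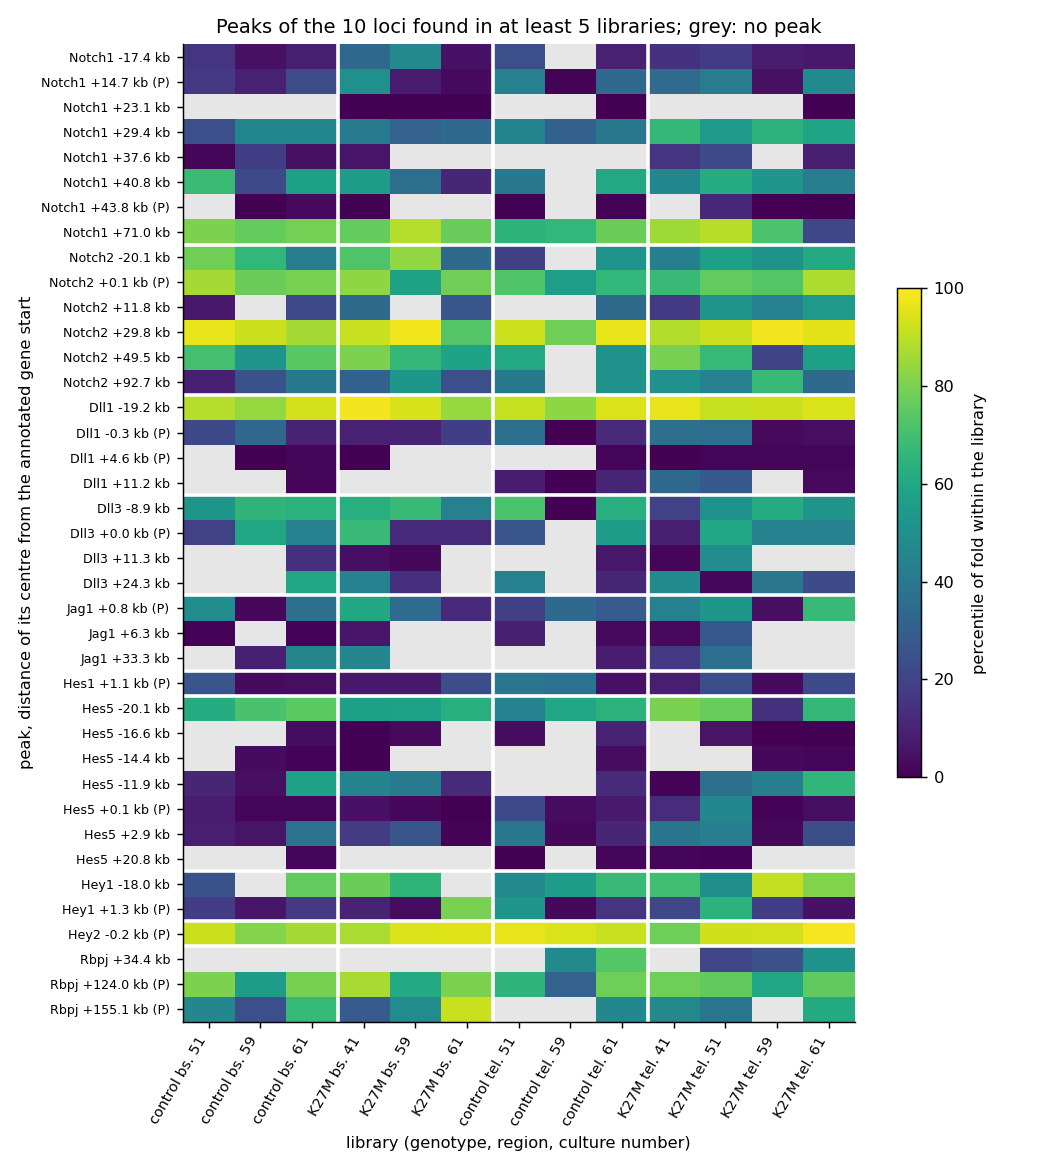
Merged peaks of the 10 loci found in at least 5 libraries, with 1 row per peak, named by gene and by the distance in kb of the peak's center from the annotated gene start ((P), promoter), and 1 column per library. Color is the percentile of the peak's fold within its library and grey means no peak; the Notch2 peak at +29.8 kb, the Dll1 peak at −19.2 kb and the Hey2 promoter are bright in all columns, and the Rbpj row at +34.4 kb is grey in all brainstem columns.

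Of the 60 merged peaks outside member promoters, 7 were in all 13 libraries, at Notch1, Notch2, Dll1, Dll3 and Hes5. For each of these 5 genes the one with the highest mean percentile of fold is described. The Notch2 peak at chr3:98042710-98043934 lies in an intron, 29.8 kb into the gene, and its fold of 4.14 ± 0.53 (SD, n = 13) was at a mean percentile of 90.7, where that of the Notch2 promoter was 74.0. It was 3.26 to 4.66 in brainstem and 3.21 to 4.89 in telencephalon, with medians of 4.32 and 4.27, and the regions overlapped over almost all of their range. At Hes5 a peak at chr4:154940316-154941281, 20.1 kb upstream and outside any annotated gene, had a fold of 3.17 ± 0.34 (SD, n = 13), at a mean percentile of 60.7 against 8.76 for the Hes5 promoter. It was 3.00 to 3.75 in brainstem and 2.61 to 3.68 in telencephalon. The 300 bases at the center of each of these peaks are shown because they were open in every culture and lie over no other gene's promoter.
Notch2 intron, chr3:98043172-98043471, plus strand: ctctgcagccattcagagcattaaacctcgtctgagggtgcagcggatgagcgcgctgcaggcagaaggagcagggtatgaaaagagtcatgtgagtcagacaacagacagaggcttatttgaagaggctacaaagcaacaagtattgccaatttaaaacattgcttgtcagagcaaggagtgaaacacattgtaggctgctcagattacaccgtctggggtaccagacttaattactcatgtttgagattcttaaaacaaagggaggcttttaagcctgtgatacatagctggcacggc
Hes5 upstream peak, chr4:154940648-154940947, plus strand: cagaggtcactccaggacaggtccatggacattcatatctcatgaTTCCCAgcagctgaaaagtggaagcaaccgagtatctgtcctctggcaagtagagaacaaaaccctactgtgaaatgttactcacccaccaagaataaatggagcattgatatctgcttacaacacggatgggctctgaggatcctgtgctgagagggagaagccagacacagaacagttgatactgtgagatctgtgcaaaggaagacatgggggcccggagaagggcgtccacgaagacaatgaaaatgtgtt
The Hes5 sequence holds the RBPJ core and the Notch2 sequence does not. The core was in the central 300 bases of 26 of the 74 peaks in the member loci (35.1%) and of 26.4% of 99647 merged peaks.

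The other 3 genes had their strongest distal peak over the promoter of a neighbor. For Dll1 it was at chr17:15395386-15396825, over the start of Fam120b, with a fold of 4.14 ± 0.55 (SD, n = 13). For Notch1 it was at chr2:26444599-26446759, over Sec16a and 0610009E02Rik, with a fold of 3.49 ± 0.48 (SD, n = 13). For Dll3 it was at chr7:28309601-28312696, over Timm50, with a fold of 2.99 ± 0.37 (SD, n = 13). To which gene such a peak belongs cannot be read from these data. The remaining 2 peaks found in every library were in an intron of Notch1, at chr2:26485522-26488901, with a fold of 2.86 ± 0.18 (SD, n = 13), and 450 bp past the end of Hes5, at chr4:154962821-154964912 in a promoter window of Pank4, with a fold of 2.501 ± 0.23 (SD, n = 13).

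In the same limma fit over the 13075 merged peaks found in all libraries, 2 peaks (0.0153%) differed between regions, none between genotypes (0%) and none in the interaction (0%), and neither of the 2 was in a member locus. Over the 16 member peaks, differences ran from −0.19 to 0.10 for region and from −0.08 to 0.07 for genotype on the log2 scale, and the smallest adjusted p was 0.889 by limma. At an unadjusted p under 0.05, limma returned 1 member peak for region, again the Hes5 promoter, where 5.37% of the 13075 peaks passed, and 0 for genotype, where 4.49% did. For the interaction 3.42% of all peaks did. The Hes5 upstream peak differed by 0.01 between regions (SE 0.077, unadjusted p = 0.864, limma), and the Notch2 intron peak by −0.04 (SE 0.076, unadjusted p = 0.602, limma). The sign of the Notch2 value turned to 0.03 without centering.

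Peaks called in some cultures were compared by how often they were found. Of the 74 peaks, 12 were called in 5 to 8 libraries and could be tested in the same way among 11706 merged peaks. None of the 11706 passed after adjustment for region (0%) or genotype (0%). For region 2 of the 12 had an unadjusted Fisher p under 0.05, where 2.36% of all peaks did, and for genotype 0 of 12 did, where 1.26% of all peaks did. The smallest p that this design allows is 0.000583, so a single peak could not pass adjustment over 11706 peaks whatever its calls. Only many such peaks together could, and the count of 0 says little about any 1 peak.

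Both peaks were called more often in telencephalon. The first lies in an intron of Rbpj, at chr5:53500092-53501089, 34.4 kb into the longest gene model. It was called in 0 of 6 brainstem and 5 of 7 telencephalon libraries, with folds of 2.824 and 3.611 in control telencephalon cultures 59 and 61 and of 2.421, 2.721 and 2.815 in K27M telencephalon cultures 51, 59 and 61 (Fisher's exact p = 0.0210, adjusted p = 1). The list of control telencephalon culture 59, which held the peak, has 16879 peaks, and the brainstem lists, which did not hold it, have 27768 to 52466. The part of list length in this difference was not tested. The second lies 711 bp beyond the 3′ end of Dll1, at chr17:15364595-15366643. It was called in 1 of 6 brainstem libraries, control culture 61, with a fold of 2.18, and in 6 of 7 telencephalon libraries, all but K27M culture 59 (Fisher's exact p = 0.0291, adjusted p = 1). Telencephalon folds there were 2.261, 2.074 and 2.441 in control cultures 51, 59 and 61 and 2.634, 2.512 and 2.133 in K27M cultures 41, 51 and 61. With each library left out, the Fisher's exact p for the Rbpj peak ran from 0.0152 to 0.0278 in the 8 cases that left it in the tested range. The other cases dropped a library that held this peak. Its calls then fell under 5 and no p was computed, so the range leaves out the cases that would weaken the difference. For the Dll1 peak the exact p ran from 0.0152 to 0.0801. It exceeded 0.05 in all cases but those without control brainstem culture 61 or K27M telencephalon culture 59. With cultures of the same number taken as pairs, the exact McNemar p was 0.125 for either peak. Their central 300 bases are given because these were the locus peaks whose detection differed most between regions, and each holds 1 core.
Rbpj intron, chr5:53500440-53500739, plus strand: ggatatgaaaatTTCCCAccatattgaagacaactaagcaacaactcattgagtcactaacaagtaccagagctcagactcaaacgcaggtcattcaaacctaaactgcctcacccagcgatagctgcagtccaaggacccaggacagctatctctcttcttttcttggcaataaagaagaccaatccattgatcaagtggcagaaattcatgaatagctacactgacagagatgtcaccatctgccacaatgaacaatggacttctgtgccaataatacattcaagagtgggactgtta
Dll1 3′ side, chr17:15365469-15365768, plus strand: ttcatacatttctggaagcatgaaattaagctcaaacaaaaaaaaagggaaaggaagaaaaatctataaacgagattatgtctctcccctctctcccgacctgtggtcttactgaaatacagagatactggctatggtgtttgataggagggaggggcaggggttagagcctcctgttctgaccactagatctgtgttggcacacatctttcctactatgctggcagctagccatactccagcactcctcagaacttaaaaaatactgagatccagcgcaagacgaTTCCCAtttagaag

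**Figure D5:**
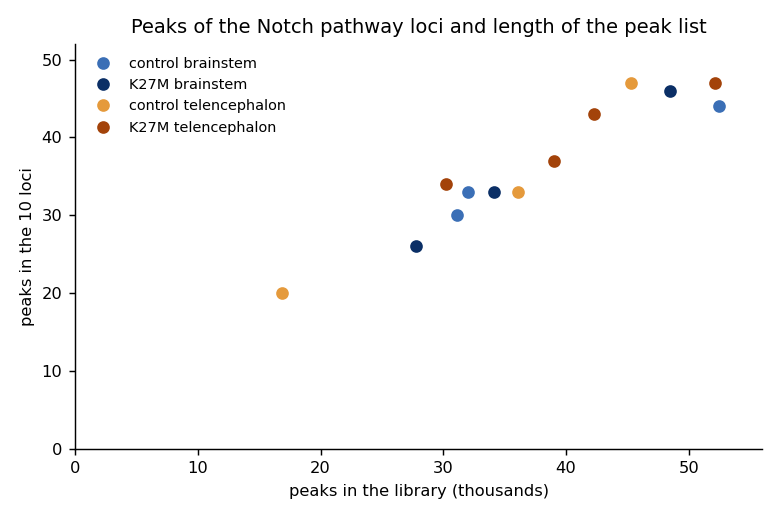
Number of merged peaks in the 10 loci (vertical axis) against the length of the peak list (horizontal axis, peaks), with 1 point per library and colors for the 4 groups. Control telencephalon culture 59 has the shortest list, 16879 peaks, and the fewest locus peaks, 20; groups are spread along the same trend.

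A library had 20 to 47 of the 74 peaks. Brainstem libraries had 26 to 46 (median 33) and telencephalon libraries 20 to 47 (median 37). Control libraries had 20 to 47 (median 33) and K27M libraries 26 to 47 (median 37). The groups overlapped, and the number moved with the length of the list, as the plot of locus peaks against list length shows. The part of list length in the counts by group was not tested.

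The rest of the pathway was examined through 48 other genes. A promoter peak was found in all 13 libraries for 25 of them, in some for 21 and in none for 2, Dlk1 and Hes2. Of the 22028 protein-coding genes, 41.8% had one in all libraries and 30.8% in none. Those in all libraries were 2 of 6 other receptors and ligands, 12 of 19 genes that cleave or modify receptors and ligands, 3 of 9 inhibitors or turnover factors, 7 of 9 nuclear cofactors and 1 of 5 other effectors. The mean fold among genes with a peak ran from 2.17 at Lfng, which adds sugars to Notch receptors, to 4.36 at Adam10. The protease Adam10 makes the first cut after a ligand binds. None of the 25 passed the limma test in any comparison. At an unadjusted p under 0.05, limma returned 1 for region (4.21% of all genes), 0 for genotype averaged over regions (4.42%), 1 for genotype in brainstem (3.62%), 1 in telencephalon (3.98%) and 3 for the interaction (3.46%). Their median differences were −0.02 and 0.02, against −0.06 and −0.002 for the 8 members.

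Of the 25, the 3 with the smallest p for region or for genotype averaged over regions were Aph1c, Psen2 and Adam17, and none passed. Aph1c, a subunit of γ-secretase, had a fold of 3.76 ± 0.69 (SD, n = 6) in brainstem and 3.98 ± 0.43 (SD, n = 7) in telencephalon, with a centered log2 difference of −0.16 (SE 0.072, unadjusted p = 0.0313, adjusted p = 0.995, limma). Psen2, a catalytic subunit of the same complex, had 2.89 ± 0.46 (SD, n = 6) in control and 3.24 ± 0.43 (SD, n = 7) in K27M, with a difference of 0.13 (SE 0.067, unadjusted p = 0.0559, adjusted p = 0.999, limma). Adam17, a protease that can make the same cut as Adam10, had 4.07 ± 0.72 (SD, n = 6) in control and 4.50 ± 0.50 (SD, n = 7) in K27M, with a difference of 0.12 (SE 0.068, unadjusted p = 0.0884, adjusted p = 0.999, limma). All 3 pairs of groups overlapped. Other unadjusted limma p-values under 0.05 came from the comparisons within regions and the interaction, and these genes were named after their values were seen. Aph1b, another γ-secretase subunit, differed by −0.30 between K27M and control in telencephalon (SE 0.0999, unadjusted p = 0.005, adjusted p = 1.000, limma) and by 0.38 in the interaction (SE 0.146, unadjusted p = 0.0137, limma). Mib2, a ubiquitin ligase of Notch ligands, had an interaction of −0.30 (SE 0.128, unadjusted p = 0.0282, limma), and Rbpjl, a relative of Rbpj, one of −0.29 (SE 0.134, unadjusted p = 0.0388, limma). Psen2 differed by 0.21 between K27M and control in brainstem (SE 0.098, unadjusted p = 0.0430, limma).

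As a description, centered log2 fold was averaged over the 8 members in each library. The mean ran from −0.46 in control brainstem culture 61, which had the longest list, to −0.16 in K27M brainstem culture 61. The median fold over promoters called in all libraries was 4.073 in the former and 3.225 in the latter. The part of this median in the profile was not tested. Over the 13 libraries the promoters most like this profile were those of Irf2 and Gm16675, which share a peak (Pearson r = 0.901, Spearman rho = 0.896), and of Atxn1 (r = 0.880, rho = 0.890). The points share their libraries, so depth and signal-to-noise enter both sides.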

How the data were processed

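ATAC-seq libraries of 13 cultures were made from snap-frozen OPC pellets by the Omni-ATAC method. Per the labels and methods, the authors ran the nf-core ATAC-seq pipeline, with reads trimmed by Trim Galore 0.6.7 and cutadapt 3.4, aligned to mm10 with BWA 0.7.17-r1188, filtered with the ENCODE blacklist, and called as broad peaks in each library with MACS2 2.2.7.1. No replicates were pooled. The calling threshold is not given in the sources used here, and the lowest deposited −log10 q was 1.00. For each peak the authors deposited a fold over local background (a ratio), −log10 p, −log10 q and a score, and a fold of a broad peak is a mean over its width. The score was not used here. The lists hold no counts, so the depth of each library is unknown, and the read-count test of the study was not run here.

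A gene's value was the fold of its strongest peak in windows around all its GENCODE M21 starts, reaching 2 kb upstream and 1 kb downstream. Peaks of different libraries were joined where they overlapped by 1 bp, and a member locus was the gene with 20 kb on either side. Log2 fold, without a pseudocount, was centered on the library median over features called in all 13 libraries, so that features with a missing value were left out. It was fitted with limma 3.58.1 (R 4.3.3) on 4 group means, with Benjamini-Hochberg adjustment over all features and a threshold of 0.05. Features called in 5 to 8 libraries were compared by Fisher's exact test (scipy 1.17.1, Python 3.11.15). Tests were checked on simulated data. Percentiles rank a peak within its own list. Sequences came from RefSeq (GRCm38.p6) and mm10.

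The members and lists were chosen with earlier results of these data known. Named were the 10 members, the strongest distal peak of each in all libraries, locus peaks past a limma threshold or with an unadjusted Fisher p under 0.05, the 3 other pathway genes with the smallest p if none passed, and the 3 most alike promoters. Alternatives were the fold without centering, percentiles, a replicate block, other filters on peaks and libraries, larger overlaps, protein-coding starts, and leaving out each library.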

Additional observations from a re-analysis of the deposited data

How the results depend on the processing

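None of the 8 member promoters called in every library, the 5 named distal peaks and the 2 peaks named for detection passed the threshold under the alternatives run for them. The other locus peaks were not refitted one by one. Over the promoter differences of the 8 members, 285 of 314 alternative values kept their sign, 29 turned it, and the smallest adjusted p was 0.889 by limma. The count of 4 promoters that differed between regions fell to 0 without centering and with peaks at p of at most 1e-10, and to 2 with percentiles, the replicate block, equal numbers of peaks and protein-coding starts. It was 0 to 5 with each library left out, 0 without control brainstem culture 61 or K27M brainstem culture 41. The 2 merged peaks became 0 without centering, with at least 10 libraries and at p of at most 1e-10, 1 with percentiles or equal numbers of peaks, and 0 to 3 with each library left out. For genotype, averaged, in brainstem and over merged peaks, the count of 0 was 0 to 1 with each library left out. Calls of 1 came without K27M brainstem culture 61 or control telencephalon culture 61 (averaged), K27M brainstem culture 61 or control telencephalon culture 59 (brainstem), and control telencephalon culture 61 or K27M telencephalon culture 59 (merged peaks). Detection counts stayed at 0.

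Without centering, the sign turned for Notch2 genotype (0.0236), Jag1 region (0.0114), Hey1 region (0.0246), the Dll1 distal peak for region (0.0604), the Notch2 distal peak for region (0.0281) and the Notch1 distal peak for genotype (0.0338). With percentiles it turned for Notch2 genotype (1.57 points), Dll1 region (−1.005) and Hes5 genotype (2.01), and with equal numbers of peaks for the Notch2 distal peak and genotype (−0.0068). With each library left out, the log2 differences that turned sign ran from −0.0494 to 0.0134 for Notch2 genotype, −0.0324 to 0.0824 for Dll1 region, −0.0243 to 0.0648 for Jag1 genotype, −0.183 to 0.0412 for Hey1 region, −0.105 to 0.120 for Hey1 genotype and −0.0243 to 0.0600 for Hey2 genotype. For distal peaks they ran from −0.0425 to 0.0258 for Dll1 region, −0.0899 to 0.0027 for Notch2 region, −0.0480 to 0.0444 for Notch2 genotype, −0.0392 to 0.0598 for Notch1 genotype and −0.0240 to 0.0602 for Hes5 region. The cause was not tested.

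Cultures of different groups share numbers. Per the methods, matched control and K27M cultures were assayed together and the study's model took matched cultures into account where possible, and no source used here says that the number marks the match. The correlation of deviations from group means was 0.0230 to 0.289 over 6 pairs across regions, with 4 over 0.1, and −0.106 to 0.216 over 5 pairs across genotypes, with 1 over 0.1. The median over all 16 same-number pairs was 0.0866, against −0.0176 for pairs of different number and group, and 9 of 13 libraries correlated best with their own number. Not every pair was over 0.1, so the fit without the block was kept as planned. With the replicate block, the count for region was 2 promoters and 3 merged peaks, and 0 for genotype in both. The sign of Jag1 genotype turned (−0.0041), as did that of the Notch1 distal peak for genotype (0.0059), and the exact McNemar p of both the Rbpj and Dll1 detection differences was 0.125. The lack of read counts limits every comparison, since an absent peak and a shallow library look alike.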
